A study of Mus musculus with 8 samples.

Results

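The 44 collagen chain genes among the 24054 genes measured in SOL (soleus, a slow postural muscle of the hindlimb) were described here, and they were chosen by symbol, Col followed by a number, the letter a and a further number. The groups were MI4KO mice, which carry floxed Irf4 alleles and Cre, and flox mice, which carry the floxed Irf4 alleles and no Cre, with 4 mice in each and 1 library per mouse. All 8 were male C57BL/6 mice recorded in the labels as on a high fat diet, and no age is given there. The study's text describes regular chow for its metabolic tests and leaves the diet of the sequenced mice unnamed, so the diet rests on the labels alone. The Cre was driven by Myl1 and acts in skeletal muscle fibers, so that other cells of the muscle keep Irf4, the gene of a transcription factor of the interferon regulatory family. Within a group, mice 1 to 4 stand in the order of the label numbers.

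Collagens are the main structural proteins of the extracellular matrix. A collagen molecule is a triple helix of 3 chains, and most of the genes listed here encode a chain that assembles with chains of the same type. Types I, III and V form the fibrils of the endomysium and perimysium, the connective tissue around and between muscle fibers. Type IV forms the sheet of the basement membrane that wraps every muscle fiber and capillary, type VI forms beaded filaments just outside it, and types XV and XVIII lie where the basement membrane meets the fibrils. In muscle most fibrillar and type VI chains are made by interstitial fibroblasts, while type IV chains are made by several cell types, endothelium among them.

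The deposited values are CPM scaled by TMM, under which the bulk of genes is taken to have the same level in all libraries, and they rest on 13417512 to 16384565 reads per mouse. Irf4 itself was at 0.686, 1.46, 1.58 and 1.68 in flox mice 1 to 4 and 0.725, 0.8404, 0.266 and 1.03 in MI4KO mice 1 to 4. Flox mouse 1 was below the MI4KO mice 1, 2 and 4, and the other flox mice were above every MI4KO mouse. Irf4 differed by -0.45 on the log2 scale (SE 0.20, unadjusted p = 0.0402, adjusted p = 1.0 in limma), on 4 to 23 reads per mouse. On the recovered reads it differed by -0.86 with edgeR (unadjusted p = 0.0562) and -0.87 with DESeq2 (unadjusted p = 0.0583), and its p was not under 0.05 in 11 of 20 alternative settings. With exact permutation of the mice, two-sided, Irf4 gave p = 0.114. Since poly(A) RNA of whole muscle was measured, RNA of cells without Cre is part of every value, and fewer cells of a type cannot be told apart from less RNA per cell. The 8 markers of slow fibers were all present, with summed values of 38024 to 46146 in flox mice and 34986 to 43108 in MI4KO mice. The 8 markers of fast fibers were all present too, with summed values of 51961 to 57397 in flox mice and 46017 to 61683 in MI4KO mice. Liver markers summed to 158.7 in flox mouse 1 and to 1.38 to 3.26 in the other 7 mice, and neutrophil markers to 6.38 in MI4KO mouse 3 against 1.43 to 2.36.

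No collagen chain passed the test between MI4KO and flox SOL, and most abundant chains were lowest in MI4KO mouse 1 and highest in flox mouse 4. Of the 44 chains, 26 had a value of 1 or more in 4 or more mice and were tested by limma on log2(value + 1), in one fit with all 11865 genes that did. A gene was called where its groups differed 1.5-fold or more with an unadjusted p under 0.05. None of the 26 chains was called, against 26 genes or 0.219% of all genes tested, and edgeR and DESeq2 on the recovered reads called none of them either. By unadjusted p alone 2 chains were under 0.05, Col6a1 and Col23a1, both lower in MI4KO mice, against 3.36% of all genes in either direction and 2.95% in this direction. With edgeR no chain was under 0.05 (3.06% of all genes), and with DESeq2 none (2.09%). The groups overlapped for all 26 tested chains, and they did not for 2.07% of all genes tested. The Benjamini-Hochberg adjusted p in limma was 1.0 for every tested chain.

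The mean was lower in MI4KO mice for 22 of the 26 chains and higher for 4, and 56.2% of all genes were lower. The chains' median log2 fold change was -0.20, with a range from -0.39 to 0.26, and the median of all genes tested was -0.01. This median moved to -0.11 without MI4KO mouse 1, where no chain had an unadjusted p under 0.05 (2.72% of all genes), and to -0.27 without MI4KO mouse 4, where 11 chains did (5.21%). Summed over the 44 chains, the value was 655, 835, 757 and 921 in flox mice 1 to 4 and 487, 705, 695 and 881 in MI4KO mice 1 to 4. The lowest sum was that of MI4KO mouse 1 and the highest that of flox mouse 4, and the other 6 mice lay between 655 and 881 with both groups mixed. The sum of all chains was 792 ± 113 in flox mice and 692 ± 161 in MI4KO mice (SD, n = 4 each), and the means differed by less than the SD of the 4 MI4KO mice.

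**Figure D1:**
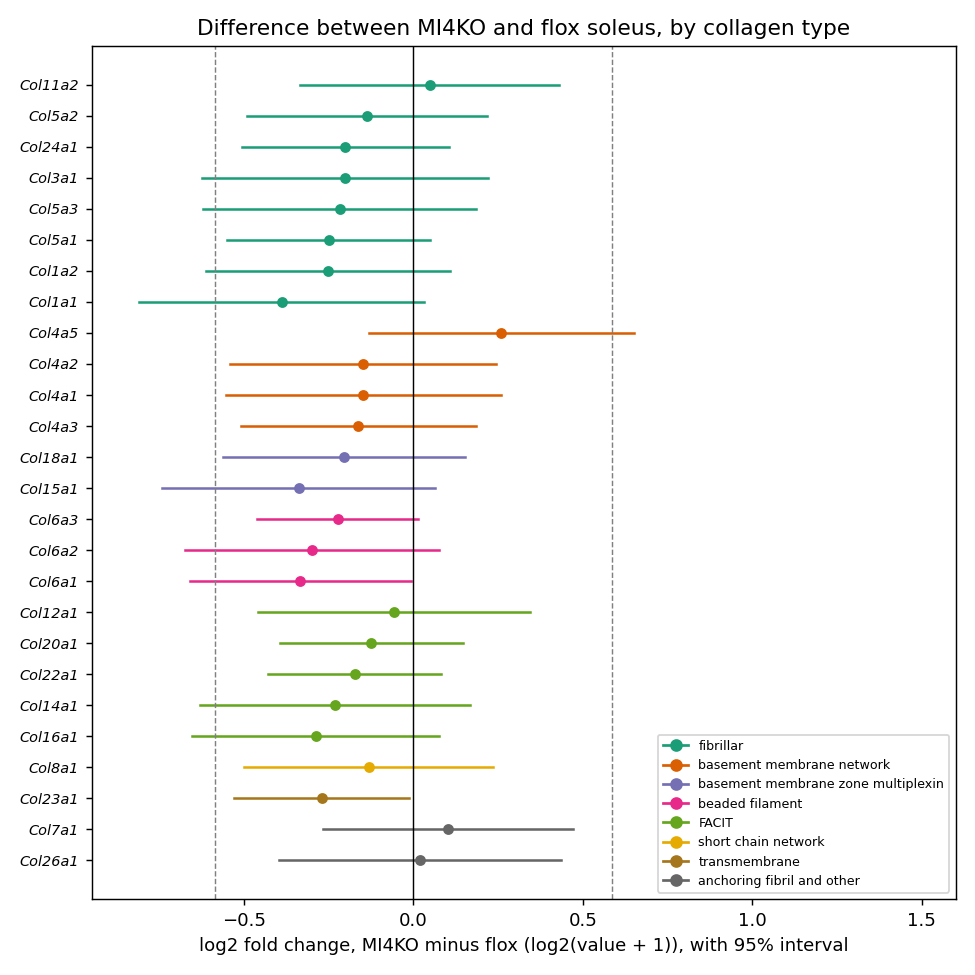
Log2 fold change of MI4KO over flox on the log2(value + 1) scale for the 26 tested chains, grouped by collagen type, with points for the estimate and bars for the 95% interval from limma. Most points lie left of 0 and the intervals of all chains but Col6a1 and Col23a1 reach 0.

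Among the fibrillar chains, Col1a1 and Col1a2 encode the chains of type I collagen, Col3a1 that of type III, and Col5a1, Col5a2 and Col5a3 those of type V, which takes part in starting fibrils. Of the 11 fibrillar genes, 8 were tested, 7 were lower and 1 higher in MI4KO mice, and none had an unadjusted p under 0.05. Col1a1 (chr11:94936224-94953042, plus strand, GENCODE M21 on GRCm38) was at 43.95, 65.2, 52.9 and 69.7 in flox mice 1 to 4 and 28.8, 48.4, 41.5 and 60.4 in MI4KO mice 1 to 4. MI4KO mouse 1 had the lowest value and flox mouse 4 the highest, and the groups overlapped. Col1a1 averaged 57.9 ± 11.7 in flox mice and 44.8 ± 13.2 in MI4KO mice (SD, n = 4 each), a fitted log2 fold change of -0.39 (SE 0.19, 95% interval -0.81 to 0.03, unadjusted p = 0.0672 in limma). This value was -0.20 without MI4KO mouse 1, and its unadjusted p in limma was 0.0250 without flox mouse 1 and 0.0115 without MI4KO mouse 4. With any other single mouse left out, the unadjusted p of Col1a1 in limma was 0.0635 to 0.235.

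Col3a1 (chr1:45311538-45349706, plus strand) was at 79.4, 113, 92.9 and 125 in flox mice 1 to 4 and 59.1, 105, 78.2 and 120.3 in MI4KO mice 1 to 4. MI4KO mice 2 and 4 lay inside the flox range and MI4KO mice 1 and 3 below it. Its log2 fold change was -0.20 (SE 0.19, 95% interval -0.63 to 0.22), and -0.016 without MI4KO mouse 1. Col1a2 (chr6:4504814-4541544, plus strand) ranged from 62.3 to 84.01 in flox mice and 42.6 to 80.5 in MI4KO mice, with a log2 fold change of -0.25 (SE 0.17), -0.089 without MI4KO mouse 1 and -0.39 without MI4KO mouse 4 (unadjusted p = 0.0272 in limma). With any other single mouse left out, the unadjusted p of Col1a2 in limma was 0.106 to 0.526. The type V chains overlapped as well: Col5a1 ranged from 20.9 to 26.2 in flox mice and 15.6 to 24.7 in MI4KO mice, and Col5a2 from 10.6 to 15.4 in flox mice and 9.91 to 16.6 in MI4KO mice. They differed by -0.25 (SE 0.14) and -0.14 (SE 0.16) on the log2 scale, and by -0.15 and -0.033 without MI4KO mouse 3. Without MI4KO mouse 4, Col5a1 differed by -0.37 (unadjusted p = 0.0148 in limma). With any other single mouse left out, the unadjusted p of Col5a1 in limma was 0.0595 to 0.249. Fibrillar chains together were at 233, 313, 263 and 339 in flox mice 1 to 4 and 169, 270.2, 217 and 322 in MI4KO mice 1 to 4, with MI4KO mice 1 and 3 low and MI4KO mice 2 and 4 inside the flox range.

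Type IV collagen of most basement membranes is built from the chains of Col4a1 and Col4a2. Of the 6 type IV genes, 4 were tested, and 3 were lower and 1 was higher in MI4KO mice, none with an unadjusted p under 0.05. Col4a1 (chr8:11198423-11312826, minus strand) was at 113, 149.7, 149 and 165 in flox mice 1 to 4 and 84.6, 119, 166 and 164 in MI4KO mice 1 to 4. MI4KO mouse 1 was the lowest and MI4KO mouse 3 the highest of the 8 mice, so the MI4KO values spanned the whole flox range. The log2 fold change of Col4a1 was -0.15 (SE 0.19, 95% interval -0.55 to 0.26), and it was 0.05 without MI4KO mouse 1. Col4a2 (chr8:11312805-11449287, plus strand) lies head to head with Col4a1, their start sites 21 bases apart and the genes overlapping by 22 bases on opposite strands. It ranged from 95.6 to 144 in flox mice and 72.8 to 139.6 in MI4KO mice, with a log2 fold change of -0.15 (SE 0.18) and of 0.04 without MI4KO mouse 1. Col4a5, a chain of a second type IV network, was the chain with the highest log2 fold change, 0.26 (SE 0.18, unadjusted p = 0.175), at 2.24, 2.77, 3.83 and 4.95 in flox mice 1 to 4 and 4.42, 4.396, 3.32 and 4.71 in MI4KO mice 1 to 4. Flox mice 1 and 2 were the lowest for Col4a5, and flox mouse 4 was the highest, and without it the difference was 0.41 (unadjusted p = 0.0296 in limma), while it was 0.12 without flox mouse 1. With any single mouse other than flox mouse 4 left out, the unadjusted p of Col4a5 in limma was 0.0794 to 0.497.

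Col15a1 and Col18a1 encode the multiplexins, collagens of the basement membrane zone whose ends can be released as fragments. Col15a1 (chr4:47208161-47313167, plus strand) was at 35.97, 54.04, 46.4 and 57.3 in flox mice 1 to 4 and 26.98, 40.5, 33.6 and 53.7 in MI4KO mice 1 to 4. The order of the mice was the same as for Col1a1, from MI4KO mouse 1 up to flox mouse 4, and the groups overlapped. It differed by -0.34 on the log2 scale (SE 0.19, 95% interval -0.74 to 0.06, unadjusted p = 0.0925 in limma), by -0.19 without MI4KO mouse 1, and by -0.47 (unadjusted p = 0.0258) and -0.51 (unadjusted p = 0.00975) without flox mouse 1 or MI4KO mouse 4. With any other single mouse left out, the unadjusted p of Col15a1 in limma was 0.0974 to 0.298. Col18a1 ranged from 9.75 to 13.6 in flox mice and 6.53 to 12.4 in MI4KO mice and differed by -0.20 (SE 0.16), or by -0.023 without MI4KO mouse 1.

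The chains of type VI collagen, Col6a1, Col6a2 and Col6a3, assemble into 1 molecule, and loss of any of them is a known cause of muscle disease. All 3 were lower in MI4KO mice on average, and the other 3 type VI genes, Col6a4, Col6a5 and Col6a6, were not tested. Col6a1 (chr10:76708792-76726168, minus strand) was at 39.7, 48.6, 40.5 and 53.8 in flox mice 1 to 4 and 28.2, 36.5, 32.1 and 49.1 in MI4KO mice 1 to 4. MI4KO mice 1, 2 and 3 lay below every flox mouse, and MI4KO mouse 4 lay above flox mice 1, 2 and 3. Col6a1 averaged 45.6 ± 6.78 in flox mice and 36.5 ± 9.05 in MI4KO mice (SD, n = 4 each), a log2 fold change of -0.33 (SE 0.15, 95% interval -0.66 to -0.01, unadjusted p = 0.0459, adjusted p = 1.0 in limma). Its unadjusted p was not under 0.05 in 15 of 20 alternative settings, and its log2 fold change ranged from -0.48 to -0.22 with each mouse left out in turn, with the smallest size without MI4KO mouse 1 (unadjusted p = 0.149 in limma) and the largest without MI4KO mouse 4 (unadjusted p = 0.00228).

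Col6a2 (chr10:76595762-76623630, minus strand), the neighbour of Col6a1, ranged from 36.7 to 51.4 in flox mice and 24.7 to 47.7 in MI4KO mice, with a fitted difference of -0.30 (SE 0.17), -0.14 without MI4KO mouse 1 and -0.45 without MI4KO mouse 4 (unadjusted p = 0.01399 in limma). With any other single mouse left out, the unadjusted p of Col6a2 in limma was 0.0702 to 0.357. Col6a3 ranged from 24.97 to 32.1 in flox mice and 20.9 to 27.9 in MI4KO mice, with a fitted difference of -0.22 (SE 0.11, unadjusted p = 0.0623). Its unadjusted p in limma was 0.0405 without flox mouse 2, 0.0421 without flox mouse 3 and 0.0173 without MI4KO mouse 4. With any other single mouse left out, the unadjusted p of Col6a3 in limma was 0.0712 to 0.195. The summed type VI chains were at 107, 121, 105 and 138 in flox mice 1 to 4 and 74.6, 99.2, 87.4 and 126 in MI4KO mice 1 to 4. MI4KO mouse 4 was second only to flox mouse 4, while the other MI4KO mice were below all flox mice.

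**Figure D2:**
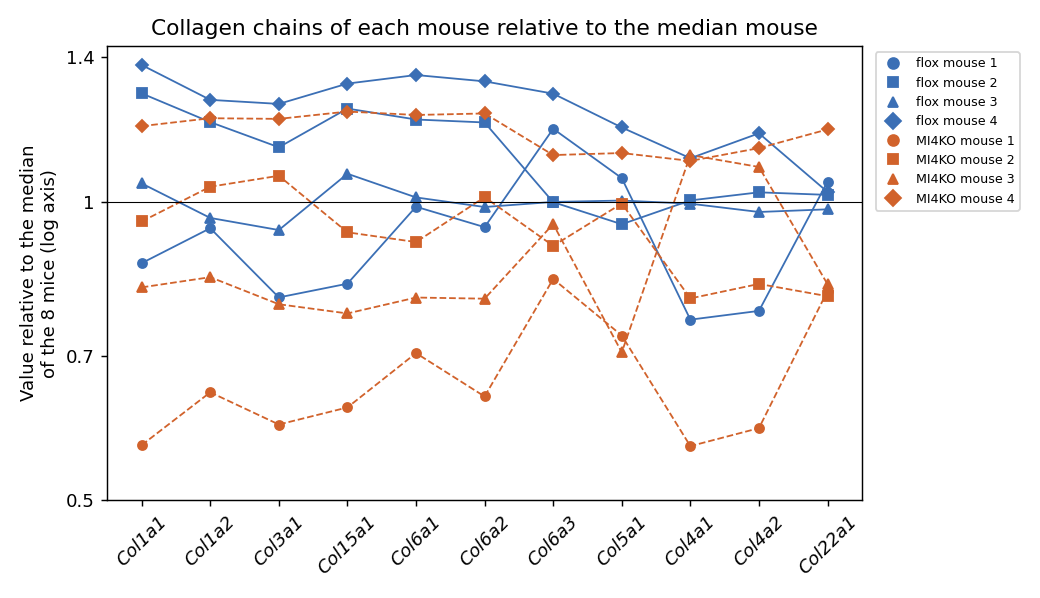
Value of 11 chains in each mouse divided by the median of the 8 mice (log axis), with 1 line and symbol for each mouse, flox mice in blue with solid lines and MI4KO mice in orange with dashed lines. MI4KO mouse 1 is the lowest line and flox mouse 4 the highest for most chains, and MI4KO mouse 3 is below the median for the fibrillar chains and above it for Col4a1 and Col4a2.

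The remaining chains were at lower values. Col23a1 (chr11:51289920-51583918, plus strand), a transmembrane collagen, was at 6.67, 6.87, 8.78 and 6.99 in flox mice 1 to 4 and 5.44, 5.95, 5.32 and 6.89 in MI4KO mice 1 to 4. MI4KO mouse 4 lay inside the flox range, the other MI4KO mice lay below it, and flox mouse 3 stood above the rest. Col23a1 averaged 7.33 ± 0.976 in flox mice and 5.899 ± 0.714 in MI4KO mice (SD, n = 4 each) (log2 fold change -0.27, SE 0.12, unadjusted p = 0.0417, adjusted p = 1.0 in limma). Its unadjusted p was not under 0.05 in 13 of the 20 alternative settings, and the log2 fold change was -0.19 without flox mouse 3.

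Col22a1, the FACIT collagen of the myotendinous junction, was at 15.5, 15.1, 14.6 and 15.2 in flox mice 1 to 4 and 12.04, 11.9, 12.2 and 17.5 in MI4KO mice 1 to 4. MI4KO mice 1, 2 and 3 lay below all flox mice and MI4KO mouse 4 lay above all of them, and the log2 fold change was -0.17 (SE 0.12). It was -0.30 without MI4KO mouse 4 (unadjusted p = 0.00626 in limma). With any other single mouse left out, the unadjusted p of Col22a1 in limma was 0.186 to 0.348. FACIT stands for fibril-associated collagens with interrupted triple helices. Col14a1 ranged from 4.86 to 6.78 in flox mice and 3.06 to 6.98 in MI4KO mice, and Col16a1 from 3.93 to 5.76 in flox mice and 2.66 to 5.26 in MI4KO mice, with log2 fold changes of -0.23 (SE 0.18) and -0.29 (SE 0.17), or -0.078 and -0.16 without MI4KO mouse 3. Both belong to the FACITs, and both overlapped between the groups. Col14a1 differed by -0.40 without MI4KO mouse 2 (unadjusted p = 0.0276 in limma), and Col16a1 by -0.42 without MI4KO mouse 4 (unadjusted p = 0.0254 in limma). With any other single mouse left out, the unadjusted p in limma was 0.191 to 0.636 for Col14a1 and 0.0607 to 0.317 for Col16a1. Col8a1, a short chain network collagen of vessel walls, differed by -0.13 (SE 0.17) and by 0.05 without MI4KO mouse 3. Col26a1 and Col7a1, the latter the collagen of anchoring fibrils, differed by 0.02 (SE 0.19) and 0.10 (SE 0.17). The other 6 tested chains, Col4a3, Col5a3, Col11a2, Col12a1, Col20a1 and Col24a1, had log2 fold changes between -0.22 and 0.05, and none had an unadjusted p under 0.05.

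Of the 18 chains that were not tested, 4 had 3 reads or fewer in every mouse, Col2a1, Col6a4, Col6a5 and Col9a3. The other 14 were Col4a4, Col4a6, Col6a6, Col8a2, Col9a1, Col9a2, Col10a1, Col11a1, Col13a1, Col17a1, Col19a1, Col25a1, Col27a1 and Col28a1, and the highest value of any of them in a mouse was 1.45, for Col4a4. Every chain had at least 1 read in some mouse. Col9a3 had no read in any flox mouse and 1 to 3 reads in each MI4KO mouse, which is within the 3 reads taken as the floor. Col2a1 and the type IX chains are collagens of cartilage. Of the 6 cartilage markers found, Matn1 was at 0 in all 8 mice, Acan, Hapln1, Lect1 and Matn3 were at 0.312 or less, and Sox9, a transcription factor that is also made in other cells, was at 10.2 to 17.4. Of the 7 bone markers, Bglap was at 0 in all 8 mice and none of the others was above 0.801.

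Levels of different chains were compared as values divided by the length of the longest annotated transcript in kb. Col4a1 was the highest at 20.99 per kb (mean of 8 mice), followed by Col4a2 at 18.1, Col3a1 at 17.4 and Col1a2 at 12.6. Col6a1 was at 10.02, Col1a1 at 8.66, Col15a1 at 8.42 and Col6a2 at 8.04, and no other chain was above 2.56, the level of Col6a3. From mouse to mouse, Col4a1 ranged from 12.8 to 25.1 per kb and Col3a1 from 10.6 to 22.4, so these chains overlapped. Col6a2, at 5.04 to 10.5 per kb, and Col6a3, at 2.07 to 3.18, did not overlap. The order also depended on the length used: divided by the joined length of all annotated exons, Col3a1 was at 9.84 and Col1a2 at 5.41 per kb.

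**Figure D3:**
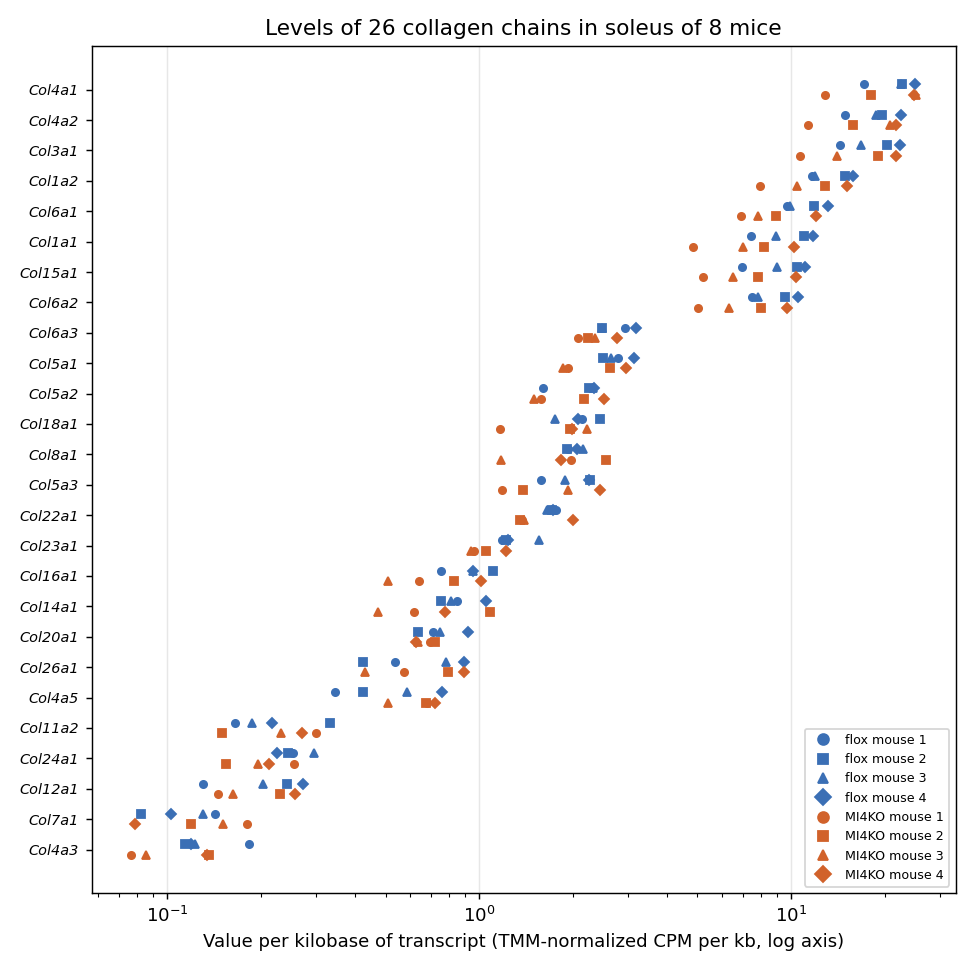
Level of the 26 tested chains per kb of the longest annotated transcript (TMM-scaled CPM per kb, log axis), with a point for every mouse, flox in blue and MI4KO in orange, and the chains ordered by their mean. Col4a1, Col4a2, Col3a1, Col1a2, Col6a1, Col1a1, Col15a1 and Col6a2 stand above the other tested chains.

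As shares of the summed collagen value, fibrillar chains made up 31.2% to 38.4%, type IV chains 32.4% to 43.9% and type VI chains 12.6% to 16.4% in the 8 mice. MI4KO mouse 3 had the highest type IV share at 43.9%, and the other 7 mice were between 32.4% and 36.3%. The Col4a1 to Col4a2 ratio, both per kb, was 1.16, 1.16, 1.204 and 1.11 in flox mice 1 to 4 and 1.13, 1.14, 1.21 and 1.15 in MI4KO mice 1 to 4, while the value of Col4a1 itself varied 1.97-fold between mice. The Col1a1 to Col1a2 ratio was 0.636, 0.737, 0.747 and 0.748 in flox mice 1 to 4 and 0.6099, 0.636, 0.673 and 0.677 in MI4KO mice 1 to 4. All 4 MI4KO mice were below flox mice 2, 3 and 4 in this ratio, and flox mouse 1 lay among them. These ratios within a mouse do not depend on the scaling between mice, but their level depends on the length used, and with joined exon lengths the mean Col1a1 to Col1a2 ratio was 1.43 in place of 0.683. The Col6a1 to Col6a2 ratio was between 1.11 and 1.37, the Col6a3 to Col6a2 ratio between 0.2596 and 0.411, and the Col5a1 to Col5a2 ratio was 1.73 in flox mouse 1 against 1.11 to 1.34 in the others.

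**Figure D4:**
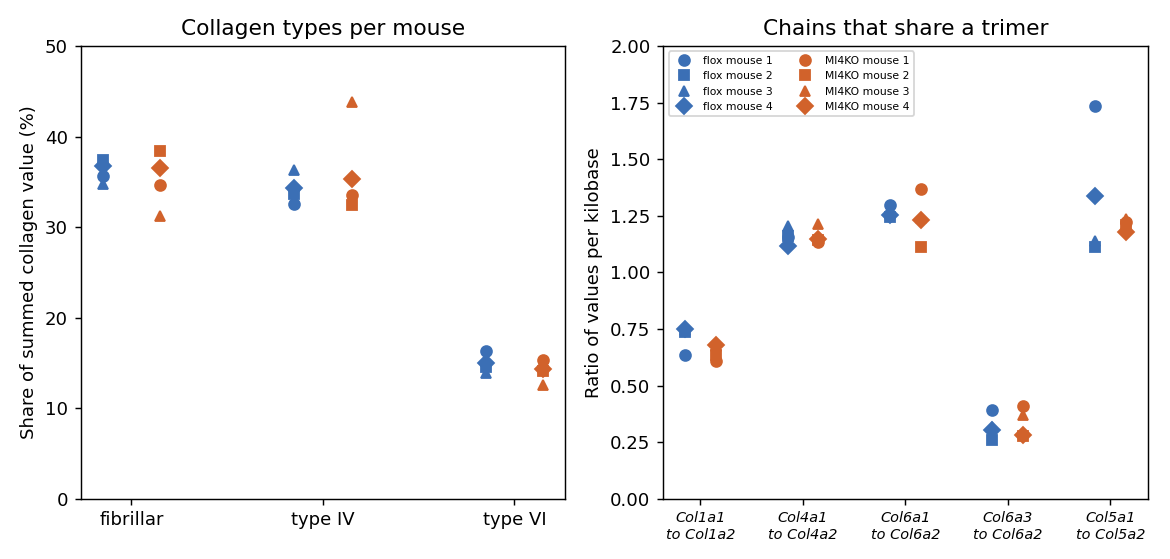
Left, share of the summed collagen value held by fibrillar, type IV and type VI chains in each mouse (percent). Right, ratio of the per-kb values of chains that share a molecule. Each symbol is 1 mouse, flox in blue and MI4KO in orange. The type IV share is highest in MI4KO mouse 3 at 43.9%, and the Col4a1 to Col4a2 ratio stays between 1.11 and 1.21.

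Abundant collagen chains varied more between mice than most genes with a mean of 20 or more, a set with no upper limit of level. Among the 5270 genes with a mean of 20 or more, the highest of the 8 values was a median 1.28 times the lowest, with an upper quartile of 1.38. The 10 chains among them had 1.54 to 2.42 times, and all 10 were above that quartile. Of the 26 tested chains, 12 had their lowest value in MI4KO mouse 1 (19.0% of all genes) and 12 their highest in flox mouse 4 (12.1%). Among the 10 abundant chains, MI4KO mouse 1 had the lowest value for 9, against 14.4% of these genes, and flox mouse 4 the highest for 9, against 7.46%. Median-of-ratios scaling and plain library size moved single mice by -4.66% to 4.46% and by -8.32% to 8.80%. The choice of these 2 mice followed from their values.

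Over the 8 mice, 8 chains were set against Col1a1 on the log2 scale, with exact two-sided permutation p-values over the 40320 pairings. Col15a1 followed Col1a1 most closely (Pearson r = 0.985, Spearman rho = 1.0, exact p = 2.48e-05 and 4.96e-05, adjusted 0.000198 and 0.000397). Col1a2 had r = 0.978 and rho = 0.952, Col3a1 0.959 and 0.952, and Col6a1 0.957 and 0.952. The adjusted exact permutation p for r and rho was 0.0008598 and 0.00228 for Col1a2, 0.00109 and 0.00228 for Col3a1, and 0.0008598 and 0.00228 for Col6a1. Col12a1 had 0.8398 and 0.881 (adjusted exact permutation p = 0.0112 and 0.0116). Without MI4KO mouse 1 and flox mouse 4, the mice farthest from the median of Col1a1, r was 0.988 for Col15a1, 0.925 for Col1a2, 0.916 for Col6a1, 0.881 for Col3a1 and 0.819 for Col12a1. Col4a1 (r = 0.7903, rho = 0.476) and Col5a1 (r = 0.769, rho = 0.667) had r of 0.342 and 0.4998 without these mice (exact permutation p = 0.4875 and 0.344). Leaving out the extremes of Col1a1 narrows its range and leaves 6 mice. This cannot show whether the relation of both chains to Col1a1 rested on those mice. Over all 8 mice their adjusted exact permutation p was 0.0262 and 0.243 for Col4a1 and 0.0273 and 0.111 for Col5a1. Col22a1 had r = 0.669 and rho = 0.524 (adjusted exact permutation p = 0.0682 and 0.225). The mouse numbers fall into a lower range with 3 mice and a higher range with 5, too few in either for a separate r. Within these ranges the MI4KO to flox ratio of Col1a1 was 0.878 (1 flox and 2 MI4KO mice) and 0.815 (3 and 2), and that of Col4a1 was 0.898 and 1.07. It was 1.04 and 0.902 for Col3a1, 0.816 and 0.852 for Col6a1, and 0.938 and 0.83 for Col15a1. For each of these chains the mean was lower in the lower range in both groups. Col1a1 averaged 43.95 and 62.6 in flox mice and 38.6 and 51.0 in MI4KO mice of the lower and higher range. The groups are unevenly spread over the ranges, so group and range are partly mixed.

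Some lists of cell markers were also low in MI4KO mouse 1, the mouse in which 19.0% of all genes tested had their lowest value. Of the 6 smooth muscle and pericyte markers, all 6 were lowest in MI4KO mouse 1, and their sum was 358.8 to 390.2 in flox mice and 276 to 416 in MI4KO mice. Endothelial markers were lowest there for 5 of 7, with sums of 349.6 to 426 and 269.9 to 371. All 7 were lower in MI4KO mice on average, as were 56.2% of all genes tested. Adipocyte markers were lowest there for 5 of 6 (28.4 to 39.2 and 10.7 to 47.2). The fibroblast markers were lowest there for 3 of 8 (609 to 818 and 563 to 788), and the 9 tendon markers for 2 (84.4 to 99.9 and 77.6 to 104.3). The tendon sum was lowest in MI4KO mouse 3. Schwann cell and macrophage markers were lowest in MI4KO mouse 1 for 1 of 6 each, and neutrophil markers for 0 of 5. Slow fiber markers were lowest in that mouse for 0 of 8 and fast fiber markers for 1 of 8. No marker of these lists that was found was at 0 in all 8 mice, which does not count markers at 0 in some mice. Only 1 of the 5 neutrophil markers and 5 of the 9 tendon markers reached the level for testing. The highest value of any neutrophil marker in a mouse was 1.79. The part of these cells in the collagen values was not tested.

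Of the 44 chains, 35 had a promoter sequence in the RefSeq table of GRCm38.p6. The 9 without an entry were Col1a1, Col2a1, Col4a3, Col5a2, Col9a3, Col12a1, Col14a1, Col22a1 and Col26a1. The 250 bases before the RefSeq start site are shown 5′ to 3′ on the strand of the gene for 5 tested chains, chosen to cover fibrillar, basement membrane zone, type VI and transmembrane chains. For Col15a1 this start site differs from the GENCODE start given above: the window ends at base 47208011, and the GENCODE gene starts at base 47208161. Capitals mark motifs on either strand, TATAAA, the TATA box, and GGGCGG, the GC box bound by Sp factors, whose letters read CCGCCC when it lies on the opposite strand. CCAAT and both forms of an interferon regulatory factor pattern, GAAA or GGAA followed after any 2 bases by GAAA, were searched too and have no match in these 5 windows.
Col3a1 (chr1:45311288-45311537, plus strand): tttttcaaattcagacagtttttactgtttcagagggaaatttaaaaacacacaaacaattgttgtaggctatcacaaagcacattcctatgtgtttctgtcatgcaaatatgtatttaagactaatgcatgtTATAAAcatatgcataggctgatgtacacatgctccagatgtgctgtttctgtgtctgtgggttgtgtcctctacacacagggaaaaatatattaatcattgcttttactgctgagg
Col15a1 (chr4:47207762-47208011, plus strand): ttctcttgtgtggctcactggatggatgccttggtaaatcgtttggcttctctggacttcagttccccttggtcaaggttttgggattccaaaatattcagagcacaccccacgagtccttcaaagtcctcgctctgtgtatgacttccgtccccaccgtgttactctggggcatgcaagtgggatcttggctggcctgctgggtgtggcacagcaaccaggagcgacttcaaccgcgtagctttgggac
Col6a3 (chr1:90843972-90844221, minus strand): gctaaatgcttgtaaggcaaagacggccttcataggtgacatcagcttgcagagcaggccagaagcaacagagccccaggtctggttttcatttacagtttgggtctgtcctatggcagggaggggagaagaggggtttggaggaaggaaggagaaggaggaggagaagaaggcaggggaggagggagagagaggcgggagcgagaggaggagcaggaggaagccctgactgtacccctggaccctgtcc
Col5a1 (chr2:27886175-27886424, plus strand): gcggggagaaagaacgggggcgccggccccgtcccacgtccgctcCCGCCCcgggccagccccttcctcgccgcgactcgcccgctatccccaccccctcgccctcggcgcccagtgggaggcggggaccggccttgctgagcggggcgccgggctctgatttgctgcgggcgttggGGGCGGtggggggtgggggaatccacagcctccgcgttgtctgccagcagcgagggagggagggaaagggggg
Col23a1 (chr11:51289670-51289919, plus strand): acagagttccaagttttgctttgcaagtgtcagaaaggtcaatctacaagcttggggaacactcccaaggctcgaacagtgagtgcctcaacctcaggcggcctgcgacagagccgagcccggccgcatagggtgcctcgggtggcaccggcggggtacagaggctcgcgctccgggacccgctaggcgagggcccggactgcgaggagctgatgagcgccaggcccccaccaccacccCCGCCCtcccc

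TATAAA starts 117 bases before the Col3a1 start site, GGGCGG lies at 205 and 73 bases before that of Col5a1 and at 11 before that of Col23a1, and the windows of Col15a1 and Col6a3 hold none of the 5 motifs. Over the 38 windows of the 35 chains, GGGCGG was in 22 (57.9%), against 32.7% of all 32851 windows of this length. CCAAT was in 13 (34.2% against 33.8%) and TATAAA in 5 (13.2% against 12.4%). The interferon regulatory factor pattern was in none of the 38, and its forms with GAAA and GGAA first were in 2.98% and 2.30% of all windows. A match describes letters in the window and not a site that is bound.

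Genes that act on collagen were described from a list of 81 partner genes, of which 69 were tested. None was called (0.219% of all genes were), and 8 had an unadjusted p under 0.05, all lower (2.95% of all genes). This count was 0 with library size scaling and 3 with edgeR or DESeq2. The mean was lower in MI4KO mice for 57 and higher for 12 (56.2% of all genes were lower), with a median log2 fold change of -0.12. The groups did not overlap for 3 genes, Crtap, Ppib and Lamb2, all lower (1.7% of all genes). Crtap encodes a subunit of the complex that modifies prolines of collagen in the endoplasmic reticulum, and Ppib the prolyl isomerase of the same complex. Crtap was at 8.48, 8.32, 7.95 and 9.03 in flox mice 1 to 4 and 5.51, 7.76, 6.05 and 7.43 in MI4KO mice 1 to 4, a log2 fold change of -0.31 (SE 0.12, unadjusted p = 0.0214, adjusted p = 1.0 in limma), which was -0.23 (unadjusted p = 0.0677) without MI4KO mouse 1. Every MI4KO mouse lay below every flox mouse for Crtap, and 2.07% of all genes tested had no overlap in either direction. An exact two-sided permutation test gives p = 0.0286 for any such gene, the smallest it can give with 4 against 4. For Crtap this p restates the lack of overlap. Ppib ranged from 25.2 to 28.4 in flox mice and 22.3 to 24.7 in MI4KO mice (-0.15 on the log2 scale, SE 0.08). Leprel2, a prolyl 3-hydroxylase, differed by -0.31 (SE 0.14).

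Among genes of propeptide removal, all 5 tested were lower on average, as were 56.2% of all genes. Bmp1, the protease that removes the C-propeptide of fibrillar collagens, was at 11.9, 13.5, 12.5 and 12.8 in flox mice 1 to 4 and 9.72, 12.5, 8.18 and 9.85 in MI4KO mice 1 to 4. MI4KO mouse 2 reached the flox range and the other MI4KO mice lay below it (log2 fold change -0.32, SE 0.12, unadjusted p = 0.0173). Pcolce, its enhancer, differed by -0.19 (SE 0.14), or by -0.082 without MI4KO mouse 1. Of the basement membrane partners, 10 of 11 were lower (56.2% of all genes) and 3 had an unadjusted p under 0.05 (2.95% of all genes were lower with such a p): Lamb2, a laminin chain, Hspg2, the heparan sulfate proteoglycan perlecan, and Agrn, agrin. Lamb2 ranged from 168 to 185 in flox mice and 146 to 167 in MI4KO mice (-0.18 on the log2 scale, SE 0.07, unadjusted p = 0.0233). Hspg2 ranged from 229 to 275 in flox mice and 161 to 239 in MI4KO mice (-0.27, SE 0.12), and Agrn differed by -0.30 (SE 0.14). Without MI4KO mouse 1 these were -0.15 for Hspg2 (unadjusted p = 0.132) and -0.16 for Agrn (unadjusted p = 0.159), and neither had an unadjusted p under 0.05 with either other scaling, edgeR or DESeq2.

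Tgfb2, a growth factor of the TGF-beta family that raises collagen synthesis in many cells, was at 22.01, 23.4, 24.1 and 26.96 in flox mice 1 to 4 and 22.6, 19.98, 12.3 and 19.3 in MI4KO mice 1 to 4. MI4KO mouse 3 was well below the others, and MI4KO mouse 1 lay inside the flox range (log2 fold change -0.39, SE 0.15, unadjusted p = 0.0229), and without MI4KO mouse 3 the value was -0.21. Cspg4, a proteoglycan of pericytes that binds collagen, differed by -0.45 (SE 0.19, unadjusted p = 0.0361), and by -0.25 without MI4KO mouse 3 (unadjusted p = 0.0919). Its unadjusted p was under 0.05 with DESeq2 (0.0471) and not with edgeR (0.0819) or either other scaling. Of the partner genes with the highest level in their role, the following did not have an unadjusted p under 0.05. Sparc, a collagen-binding protein, differed by -0.22 (SE 0.14, or -0.098 without MI4KO mouse 1), P4hb, a subunit of prolyl 4-hydroxylase, by -0.08 (SE 0.07), Tgm2, a cross-linking transglutaminase, by 0.04 (SE 0.11), and Timp3, an inhibitor of matrix proteases, by -0.11 (SE 0.14). Itgb1, the beta subunit of the collagen-binding integrins, was at 192 to 206 in flox mice and 195 to 197 in MI4KO mice and differed by -0.03 (SE 0.06), or by 0.02 with library size scaling. Dag1, dystroglycan, differed by 0.05 (SE 0.07), and Tgfb3 by -0.06 (SE 0.07).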

How the data were processed

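RNA-seq values of SOL from 4 MI4KO and 4 flox mice were analysed, grouped by the titles in the labels. Per the submitters' notes, stranded poly(A) libraries were demultiplexed with bcl2fastq 2.17, mapped with Bowtie2 2.1.0 (mm10) and quantified with RSEM 1.2.15. The authors scaled the libraries by TMM and deposited a CPM-like signal per gene and mouse. They also deposited a signed fold score and a p-value per gene from their own comparison, which were not used. Dividing by the step of each mouse gave whole reads for 100% of non-zero values (tolerance 0.02 reads), and 3 reads equal values of 0.181 to 0.225, for counting error only. Whether the counting used strand is not given in the sources used here.

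MI4KO and flox were compared with limma 3.58.1 (R 4.3.3) with a mean-variance trend on log2(value + 1), which understates changes of low genes. A gene was called at an unadjusted p under 0.05 and a fold of at least 1.5. p-values were adjusted by Benjamini-Hochberg over all 11865 genes tested, and exact permutation tests used scipy 1.17.1. The fit was tested on simulated reads with known changes. edgeR 4.0.16 and DESeq2 1.42.0 on the recovered reads, other filters, pseudocounts and scalings, and leaving out each mouse were the alternatives. Coordinates and lengths are from GENCODE M21 on GRCm38, matched by symbol. Named chains are the 3 highest of each type with a mean of at least 1, chains with an unadjusted p under 0.05 and chains of the ratios, named partners the highest of each role and those with an unadjusted p under 0.05 or no overlap. Members and lists were chosen with earlier results of these data known. Nothing in the labels says that mice of a group are separate litters, so p-values measure the spread between these mice.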

Additional observations from a re-analysis of the deposited data

Results flagged for a closer look

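In groups of 4 mice, the gap between the highest or lowest mouse and its nearest neighbour was divided by the range of the group, and 7 of the 96 groups examined exceeded Dixon's 95% critical value, where chance gives about 1 in 20. Col23a1 in flox mice had a ratio of 0.830, with flox mouse 3 at 8.78 and the others at 6.67 to 6.99. For Col22a1 in MI4KO mice the ratio was 0.929, with MI4KO mouse 4 at 17.5 and the others at 11.9 to 12.2. Col5a2 in flox mice had 0.893, with flox mouse 1 at 10.6 against 14.8 to 15.4, and Col4a3 in flox mice had 0.849, with the same mouse at 1.56 against 0.971 to 1.05. The Col1a1 to Col1a2 ratio in flox mice had 0.905, again through flox mouse 1, at 0.636 against 0.737 to 0.748. In MI4KO mouse 3 the Col4a1 to Col4a2 ratio was 1.21 against 1.13 to 1.15 in the other MI4KO mice (0.833), and Tgm2 was 207 against 145 to 152 (0.885). Flox mouse 1 is the mouse with liver markers at 158.7, and their part in these values was not tested.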

How the results depend on the processing

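Genes past the threshold numbered 26, and 71 with a pseudocount of 0.1, 41 with 0.5, 13 with robust estimation, 65 with edgeR, 307 with edgeR and no filter, 51 with DESeq2, 41 without flox mouse 1 and MI4KO mouse 3, and 19 to 58 with each mouse left out. Genes with an adjusted p under 0.05 numbered 0, and 1 without flox mouse 1 and MI4KO mouse 3, with 0 to 1 when each mouse was left out. Chains with an unadjusted p under 0.05 numbered 2, and 0 with no filter, median-of-ratios scaling, library size, a covariate for the mouse number range, edgeR with or without the filter and DESeq2, 1 with no trend or robust estimation, and 0 to 11 with each mouse left out: 0 without MI4KO mouse 1 (2.72% of all genes) and 11 without MI4KO mouse 4 (5.21%). Partner genes under that limit numbered 8, and 4 with no filter, median-of-ratios scaling or edgeR with no filter, 0 with library size, 5 with no trend, 3 with the covariate, edgeR or DESeq2, and 1 to 14 with each mouse left out, and 0 to 1 were then called. Chains lower in MI4KO mice numbered 20 to 24 with each mouse left out.

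For the 20 named chains, 346 of 400 alternative values kept direction and side of the threshold, 28 lost an unadjusted p under 0.05 (2 chains), 17 gained one (11 chains), and 9 turned direction (4 chains). Turned values were 0.000739 for Col4a1 with the covariate and 0.017 for Itgb1 with library size. With each mouse, or flox mouse 1 and MI4KO mouse 3, left out, the range was -0.38 to 0.052 for Col4a1, -0.36 to 0.041 for Col4a2 and -0.26 to 0.033 for Timp3, all positive without MI4KO mouse 1. It was -0.28 to 0.053 for Col8a1, positive without MI4KO mouse 3 and 0.034 without it and flox mouse 1. Col26a1 ranged from -0.098 to 0.14, negative without flox mouse 1 or 2 or MI4KO mouse 2 or 4. Tgm2 ranged from -0.0865 to 0.0923, negative without flox mouse 2 or MI4KO mouse 3 (-0.078), and Dag1 from -0.0054 without flox mouse 2 to 0.080. The causes were not tested. Other scalings shifted the median of all genes by 0.017 and 0.041. No paired analysis was possible because every mouse has its own number in the labels and the groups share none. With 4 mice a group, an SE of 0.19 for Col1a1 leaves differences of its interval undecided, and chains of few reads are limited by counting error.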
